A study of Mus musculus with 12 samples.

Results

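Of the 19547 genes in the deposited table of these mouse fat grafts, 62 are protein-coding genes from families of matrix proteases and their inhibitors. They were taken by symbol: every gene named Mmp or Timp followed by a number, and every gene whose symbol begins with Adam. Not every member encodes an active protease or an inhibitor, and Adam22 and Adam23, for example, do not. The members were 17 matrix metalloproteinases (Mmp), 4 tissue inhibitors of metalloproteinases (Timp), 19 Adam genes, 17 Adamts genes and 5 Adamts-like (Adamtsl) genes. All 62 passed the filter on low counts that left 18551 genes for testing, and the lowest count of any member in any library was 4 reads. Genes of these families outside the table were not analysed here.

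RNA was measured in 12 libraries of adipose tissue from fat grafts at 8 weeks, 4 in each of 3 groups. The samples were all labelled wild type, strain C57BL/6, aged 16 weeks. The control group was the fat graft alone. In the CAL group (cell-assisted lipotransfer) the graft carried added ASC, adipose-derived stromal cells by the common reading of that abbreviation, and in the CAL_Dll4i group the same kind of graft was combined with inhibition of Dll4, a Notch ligand of vessel cells. How Dll4 was inhibited, how many ASC were added and whether each library is a separate animal are not in the labels. The p-values therefore measure the spread between libraries, which may be technical.

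Matrix metalloproteinases are secreted or membrane-bound zinc enzymes that cut collagens, elastin, proteoglycans and other matrix proteins, and most are made as inactive proenzymes. The Timp proteins block their active site. Adam proteins are mostly membrane-anchored and release the outer parts of other membrane proteins such as growth factors, cytokines and the Notch receptors, Adamts enzymes are secreted and cut procollagens and large proteoglycans, and Adamts-like proteins share the accessory domains without a protease. In fat these families are known for matrix remodelling when adipocytes enlarge, when vessels grow in and when dead tissue is cleared.

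Total counts ran from 55883051 to 70804141 per library. Library pairs correlated at r = 0.977 to 0.993 across genes, which are not independent replicates, and no pair was identical. Adipocyte markers (10 of 10 measured) summed to 877 to 1923 CPM (counts scaled to a common library size) in control, 1993 to 2848 in CAL and 1490 to 1915 in CAL_Dll4i, and macrophage markers (9 of 9) to 5153 to 6287 over all libraries. Dll4 itself stood at 4.97 to 6.95 CPM in control, 3.01 to 4.22 in CAL and 3.98 to 4.95 in CAL_Dll4i. Markers of other tissues were high in some libraries. Acta1, the actin of skeletal muscle, stood at 28.1 CPM in CAL replicate 1, 74.5 in CAL replicate 2 and 127 in CAL_Dll4i replicate 3, against 2.91 or less in the other 9, and these 3 are called the libraries with muscle RNA below. Of 6 keratinocyte markers 3 were tested, and Krt1, Lor and Dsg1a were not analysed here. Krt10, a marker of differentiated keratinocytes, was low in all groups, with means of 0.877, 0.888 and 0.889 CPM in control, CAL and CAL_Dll4i, so the summed level of the 3 reflects Krt5 and Krt14, keratins of basal epithelial cells. This sum stood at 50.9 to 325 CPM in control replicates 2 and 4, CAL replicate 3 and CAL_Dll4i replicates 1, 2 and 4. It stood at 13.7 or less in the other 6 libraries.

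Of the measured Mmp genes, 6 lie on chromosome 9 within 309.4 kb of the GRCm38.p6 assembly: Mmp13 (7272514 to 7283333), Mmp12 (7344397 to 7360461), Mmp3 (7445822 to 7455975), Mmp10 (7502342 to 7510242), Mmp8 (7558429 to 7568486) and Mmp27 (7571396 to 7581885). Other Mmp genes annotated in this stretch, such as Mmp1a and Mmp1b, were not analysed here. Exons of Mmp1b overlap 3.94% of the Mmp12 exon bases on the opposite strand, which leaves a small part of the Mmp12 counts uncertain. The promoters of the 6 are shown because these neighbours range from 12.8 to 592 TPM in mean level (TPM, which corrects for transcript length) and their estimates did not all go the same way in CAL grafts. Each line is the 100 bases before a transcription start, 5′ to 3′, on the plus strand of GRCm38.p6 and from RefSeq. Capitals mark the letters TGANTCA, the pattern bound by the AP-1 factors Fos and Jun, which reads the same on both strands.
Mmp13, chr9:7272414-7272513: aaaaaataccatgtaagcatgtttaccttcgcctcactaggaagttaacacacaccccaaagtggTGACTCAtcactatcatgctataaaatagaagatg
Mmp12, chr9:7347274-7347373: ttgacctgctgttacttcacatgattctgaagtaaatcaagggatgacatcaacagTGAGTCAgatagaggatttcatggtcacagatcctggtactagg
Mmp3, chr9:7445722-7445821: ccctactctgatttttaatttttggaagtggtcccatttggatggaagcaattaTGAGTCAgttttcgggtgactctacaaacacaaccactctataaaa
Mmp10, chr9:7502242-7502341: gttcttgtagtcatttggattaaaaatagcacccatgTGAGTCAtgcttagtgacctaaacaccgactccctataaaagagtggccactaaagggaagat
Mmp8, chr9:7558329-7558428: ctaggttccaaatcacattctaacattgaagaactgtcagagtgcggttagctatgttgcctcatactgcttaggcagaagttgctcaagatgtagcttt
Mmp27, chr9:7571296-7571395: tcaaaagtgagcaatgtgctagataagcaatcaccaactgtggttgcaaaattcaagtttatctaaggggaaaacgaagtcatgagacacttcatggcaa

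The letters TGANTCA occurred in the promoter windows of Mmp13, Mmp12, Mmp3 and Mmp10 and not in those of Mmp8 and Mmp27. They began 35 bases before the start in Mmp13, 44 in Mmp12, 46 in Mmp3 and 63 in Mmp10. For Mmp12 the table holds a pair of starts, and the letters are before the downstream one. Among members with a promoter entry, 5 of 40 had the letters within 250 bases before a start, the fifth being Adam19 at 131 bases, against 2113 of 27025 genes (7.82%) in the whole table. By position, this was 4 of the 6 neighbours on chromosome 9 and 1 of the 34 members elsewhere (2.94%). A match of letters describes the window and shows no binding.

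Mmp12, Mmp3, Adam8 and Mmp2 led the members by level. The libraries were enriched by exon capture, and TPM does not correct for differences in capture between genes, so close ranks are uncertain. On the deposited TPM scale, which corrects for transcript length and was used for every comparison of levels between genes, Mmp12, the elastase of macrophages, was the highest member at a mean of 592 TPM over the 12 libraries. It was followed by the stromelysin Mmp3 at 563, by Adam8, an ADAM of leukocytes, at 419, and by the gelatinase Mmp2 at 375 TPM. Mmp2, Mmp3 and Mmp12 together made up 75.1% of the summed Mmp TPM, and the 10 highest members made up 73.7% of the TPM of all 62.

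Of the 62 members, 13 had a mean above 100 TPM and 10 a mean under 1 TPM. The widely expressed membrane sheddases followed Mmp2: Adam9 at 219 TPM, Adam17, which releases TNF, at 147, Adam15 at 136, and Adam10, which makes the ligand-dependent cut in Notch receptors, at 121. Mmp14, the membrane-type enzyme that activates the Mmp2 proenzyme together with Timp2, stood at 146 TPM, Mmp19 at 124 and the collagenase Mmp13 at 103. Timp1 at 157 TPM and Timp2 at 154 were the leading inhibitors, with Timp3, which stays bound to matrix, at 18.8 and Timp4 at 1.87. Of the Adamts genes, Adamts2, which trims procollagens, was highest at 69.8 TPM, then the proteoglycan-cutting Adamts5 at 55.1, Adamts12 at 38.5, Adamts1 at 34.1 and Adamts10, linked to fibrillin microfibrils, at 27.3. Adamtsl5 at 13.5 and Adamtsl1 at 8.99 TPM led the protease-free relatives.

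**Figure D1:**
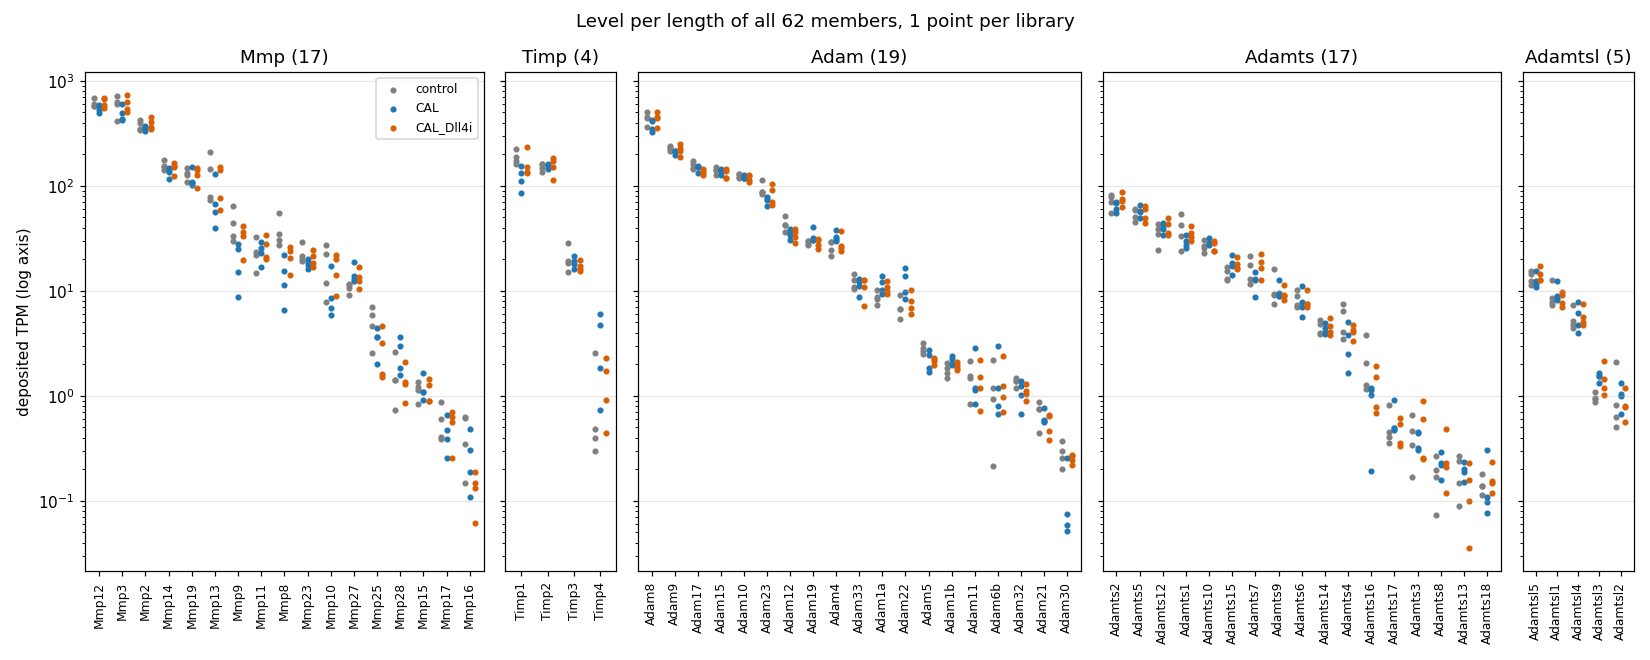
Deposited TPM (log axis) of the 62 members, 1 point per library coloured by group, in panels by family and ordered by mean level. Mmp12 and Mmp3 stand highest with means of 592 and 563 TPM, 13 members have means above 100 TPM and 10 below 1 TPM.

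The summed levels of the families overlapped between groups. The Mmp genes summed to 2155 ± 264 TPM (control), 1819 ± 202 (CAL) and 2143 ± 303 (CAL_Dll4i), given as mean ± SD with n = 4 each, here and below. The Timp genes summed to 361 ± 42.9, 299 ± 29.1 and 338 ± 59.1 TPM in the same order. The ratio of summed Mmp to summed Timp TPM was 6.00 ± 0.687 in control, 6.09 ± 0.368 in CAL and 6.52 ± 1.67 in CAL_Dll4i, with single libraries from 4.73 to 8.59. All 62 members took 0.602%, 0.545% and 0.599% of the counts in control, CAL and CAL_Dll4i.

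The members differed widely in how steady they were between libraries of a group. Adam10 was the steadiest by the mean of its 3 group CVs, at 236 ± 11.0, 232 ± 5.09 and 235 ± 14.8 CPM in control, CAL and CAL_Dll4i. Adam17 stood at 286 ± 20.8, 275 ± 15.5 and 262 ± 13.0 CPM. By contrast, Timp4 in control was 1.14 ± 1.33 CPM, an SD above its mean, and Mmp13 was 140 ± 72.3 CPM there. CPM here are TMM-normalised and were used for comparisons between groups.

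CAL against control asks what added ASC does to the graft. No member was called by edgeR's quasi-likelihood test at a Benjamini-Hochberg adjusted p under 0.05, where 0.00539% of all genes tested were called. At an unadjusted p under 0.05, 16 of the 62 members differed (25.8%), against 14.6% of all genes tested. Of these, 8 were higher in CAL (7.01% of all genes) and 8 lower (7.57%). DESeq2 called 2 members, Adam22 and Mmp8 (3.61% of all genes it tested), and voom with sample weights 1, Adam22 (0.474% of all genes). Estimates were higher in CAL for 25 members and lower for 37, against 8980 and 9571 of all 18551 genes. The median log2 fold change was -0.06 against -0.01 over all genes. The libraries of both groups did not overlap for 7 members (11.3%), against 7.35% of all genes. Those higher in every CAL library were Adam19, Adam22, Adam4, Mmp27 and Adamtsl3 (3.61% of all genes), and those lower were Mmp8 and Adam23 (3.75%). Without CAL replicate 1, or without the 3 libraries with muscle RNA, the count at an unadjusted p under 0.05 was 8 in each case. The shares over all genes in these settings are not given here.

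**Figure D2:**
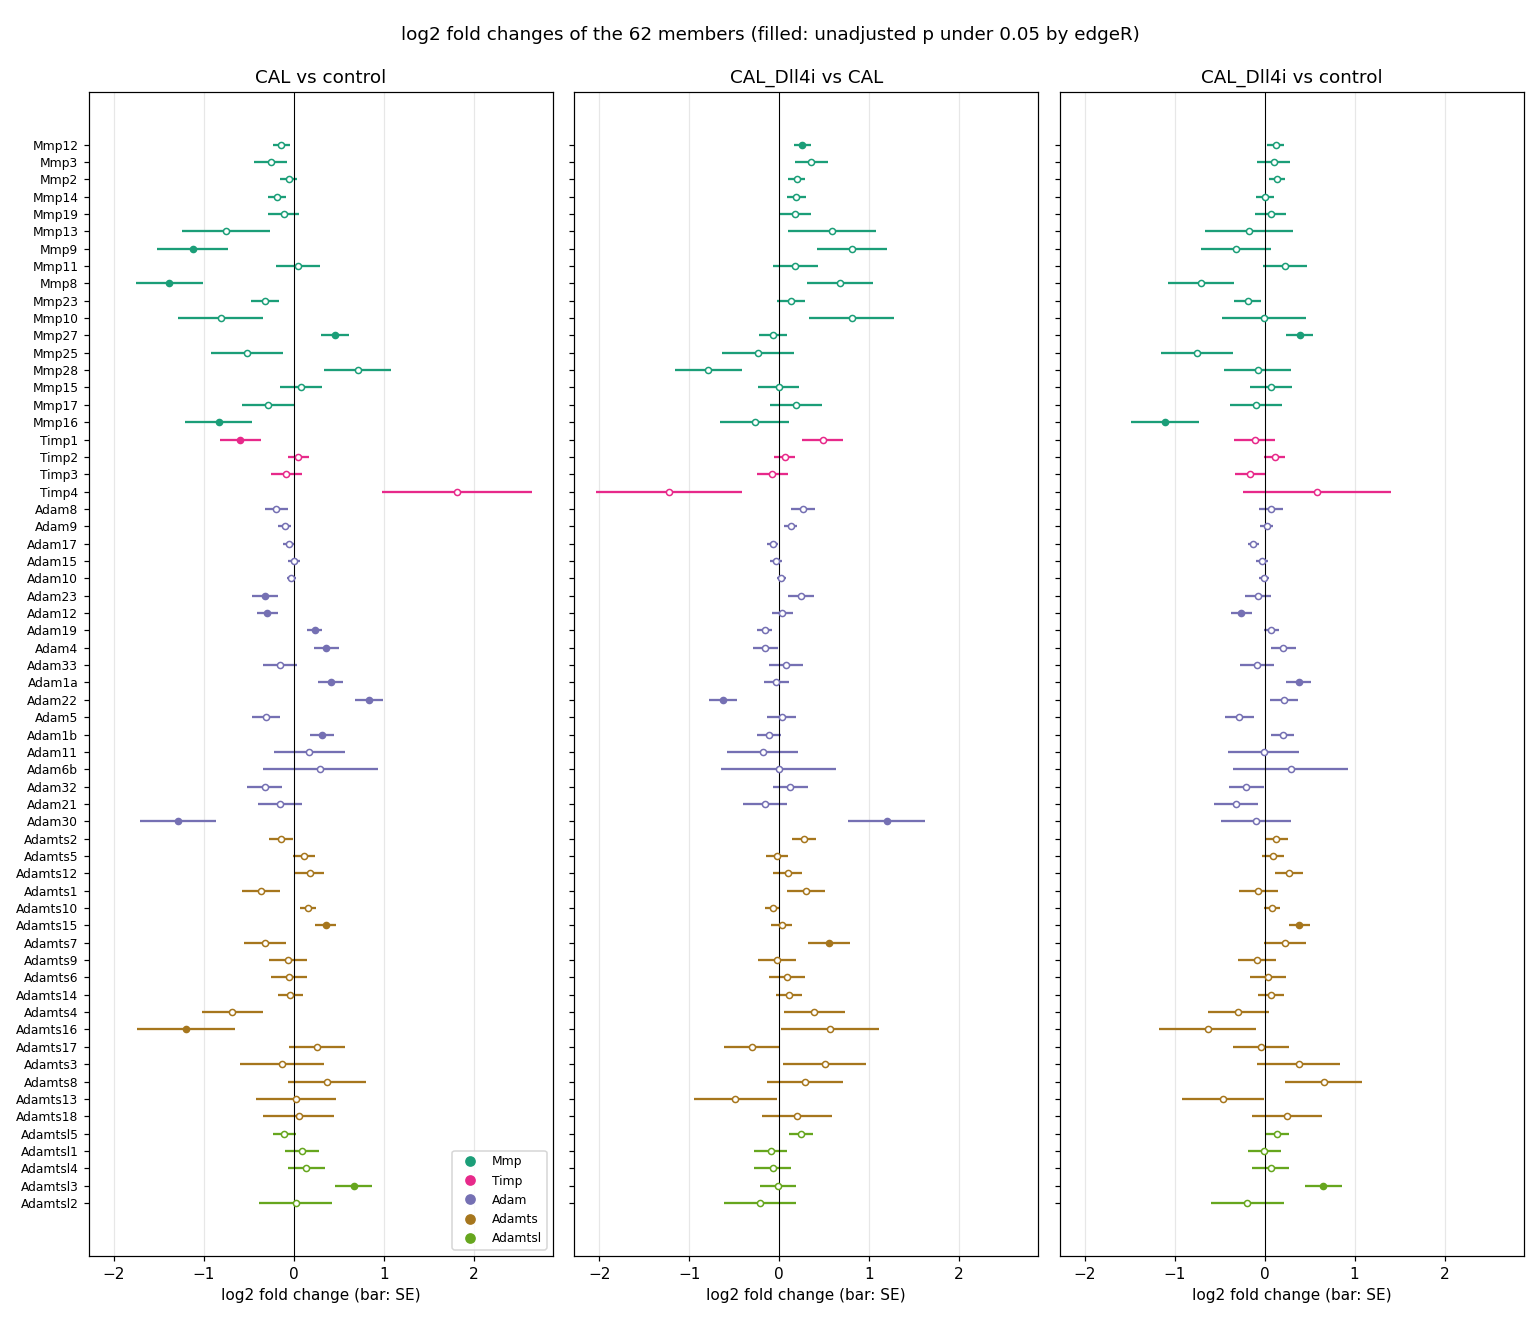
Log2 fold changes (x axis, bars are SE) of the 62 members in the 3 comparisons by edgeR, ordered by family and level, with filled points at an unadjusted p under 0.05. In CAL against control 16 points are filled, with Adam22 at 0.84 and Mmp8 at -1.38, against 4 and 6 in the other panels.

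Adam22 had the smallest p of all members, and the 32nd smallest of all 18551 genes, in CAL against control. It encodes an ADAM without protease activity that serves in nerve tissue as a receptor for the secreted LGI proteins. In control replicates 1 to 4 it stood at 13.3, 14.6, 14.4 and 16.4 CPM. In CAL replicates 1 to 4 it stood at 27.0, 20.6, 24.2 and 32.9 CPM, so every CAL library lay above every control. In CAL_Dll4i replicates 1 to 4 it stood at 15.9, 16.8, 21.7 and 13.8 CPM, and replicate 3 of that group lay above CAL replicate 2.

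The group values of Adam22 were 14.7 ± 1.30, 26.2 ± 5.19 and 17.0 ± 3.32 CPM in control, CAL and CAL_Dll4i. CAL was 1.78-fold above control, a log2 fold change of 0.84 ± 0.16 (SE), with an edgeR adjusted p = 0.0998, and DESeq2 and voom with sample weights called it (adjusted p = 0.000151 and 0.0436). Over all settings tried the adjusted p of Adam22 ran from 0.000151 to 0.485. CAL_Dll4i against CAL gave -0.62 ± 0.16 (unadjusted p = 0.0018, edgeR adjusted p = 0.659), and CAL_Dll4i against control 0.22 (adjusted p = 0.781). These comparisons share libraries, so opposite signs arise in part from the CAL values they have in common. On the deposited TPM scale the groups of Adam22 overlapped: control stood at 5.35 to 9.22 TPM and CAL at 8.30 to 16.5, with control replicate 4 above CAL replicate 2. Adam22 lies on chromosome 5 at 8072347 to 8368312 (GRCm38.p6). The highest Adam22 level, in CAL replicate 4, was in the library with the highest adipocyte marker sum, 2848 CPM. Within CAL and within CAL_Dll4i the libraries ranked alike by Adam22 and by this sum. Within control they did not: Adam22 was highest in replicate 4, at 16.4 CPM, where the sum was lowest at 877 CPM. The part of adipocyte RNA in this result was not tested.

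The proteases stored in neutrophil granules had lower estimates in CAL. Mmp8, the neutrophil collagenase, stood at 34.4, 27.6, 30.5 and 56.3 CPM in control replicates 1 to 4. It stood at 11.1, 16.2, 23.2 and 6.60 CPM in CAL replicates 1 to 4, all below the lowest control. In CAL_Dll4i replicates 1 to 4 it stood at 22.4, 24.5, 15.2 and 28.9 CPM, overlapping both other groups.

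The mean of Mmp8 was 37.2 ± 13.0, 14.3 ± 7.13 and 22.8 ± 5.71 CPM in control, CAL and CAL_Dll4i. CAL against control gave a log2 fold change of -1.38 ± 0.37 (edgeR adjusted p = 0.179), and DESeq2 called it lower (adjusted p = 0.00465) while voom with sample weights did not (0.102). Over all settings tried its adjusted p ran from 0.00465 to 0.486. Mmp9, the gelatinase of neutrophils and macrophages, stood at 56.2 ± 20.7, 25.8 ± 12.6 and 45.1 ± 13.0 CPM, with -1.12 ± 0.39 in CAL against control (unadjusted p = 0.0161, edgeR adjusted p = 0.247). The highest CAL value of Mmp9, 38.3 CPM in replicate 3, overlapped the lowest control value of 38.2. Mmp9 was highest in control replicate 2, at 84.1 CPM, and stood at 59.1 in control replicate 4. Its values of 46.3 CPM and above were all in libraries with high Krt5 and Krt14, and the part of keratin RNA was not tested. Mmp25, a membrane-anchored protease of leukocytes, stood at 7.64 ± 2.88, 5.33 ± 1.49 and 4.53 ± 2.48 CPM and differed at an unadjusted p under 0.05 in no comparison.

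Other neutrophil genes had the same direction. Of 12 neutrophil markers 10 were measured, and Camp and Ngp were not analysed here. All 10 had lower estimates in CAL against control, as did 9571 of all 18551 genes. In CAL_Dll4i against CAL 9 of 10 had higher estimates, as did 9510 of all genes. Their summed level was 167 to 573 CPM in control, 105 to 189 in CAL and 199 to 268 in CAL_Dll4i. The 573 was control replicate 4, where Mpo stood at 97.5 CPM and Mmp8 at its highest, and the other controls had sums of 167 to 211 CPM. Without control replicate 4 the log2 fold change of Mmp8 was -1.11. In bulk tissue, fewer cells of a type and less RNA per cell cannot be told apart, and the part of neutrophil number in the Mmp8 and Mmp9 values was not tested.

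**Figure D3:**
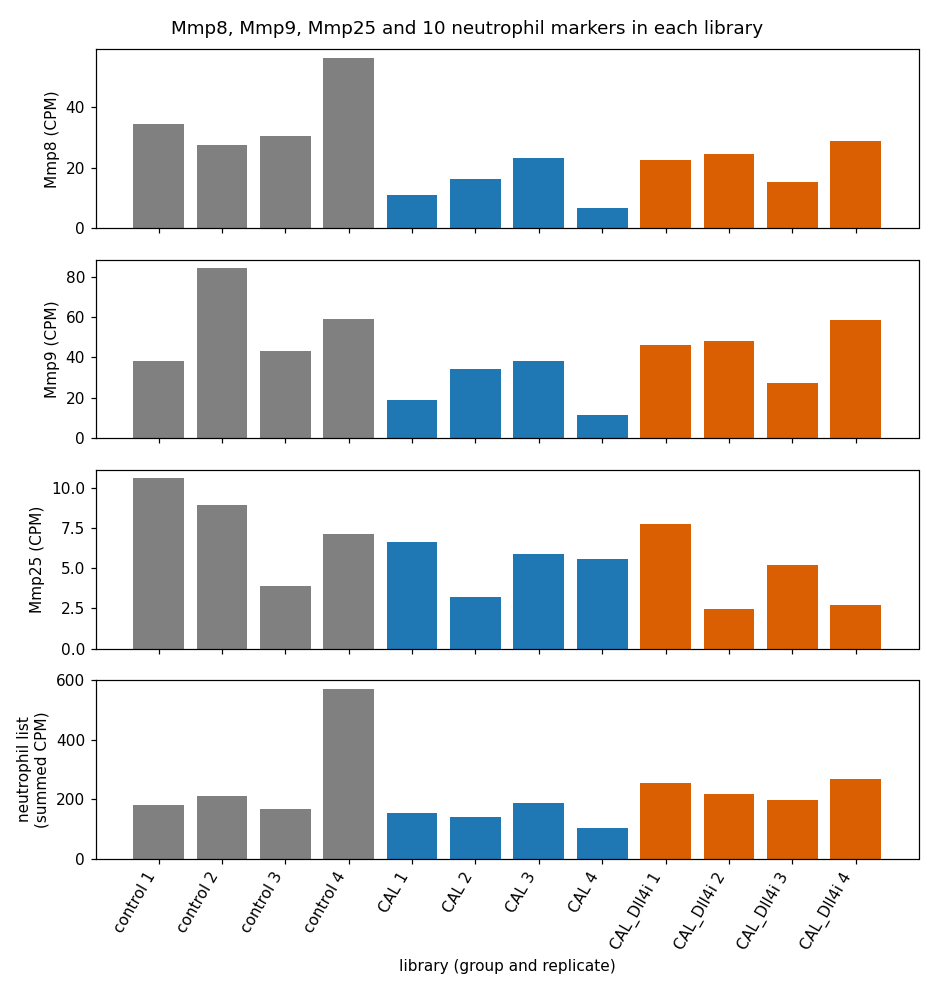
Bars give Mmp8, Mmp9, Mmp25 (TMM CPM) and the summed CPM of the 10 measured neutrophil markers in each of the 12 libraries, coloured by group. The CAL libraries have marker sums of 105 to 189 CPM and Mmp8 of 6.60 to 23.2 CPM, and control replicate 4 stands apart in the marker sum at 573 CPM.

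The other neighbours on chromosome 9 split by level and direction. Mmp12 stood at 902 ± 77.7, 820 ± 86.7 and 981 ± 93.1 CPM in control, CAL and CAL_Dll4i, and Mmp3 at 440 ± 97.5, 368 ± 73.8 and 472 ± 69.5. Mmp13 stood at 140 ± 72.3, 82.9 ± 46.4 and 124 ± 52.3 CPM, and the stromelysin Mmp10 at 12.3 ± 6.46, 7.01 ± 3.98 and 12.3 ± 4.54. None of the 4, whose promoter windows all hold the AP-1 letters, differed between CAL and control at an unadjusted p under 0.05. The windows of Mmp8 and Mmp27 both lack the letters, and these genes went in opposite directions, with Mmp8 lower in CAL at -1.38. Mmp27, a little-studied member, was higher, at 9.35 ± 0.997, 12.8 ± 2.48 and 12.2 ± 2.12 CPM. Its log2 fold change was 0.46 ± 0.15 in CAL against control (unadjusted p = 0.0111, edgeR adjusted p = 0.222) and 0.39 ± 0.15 in CAL_Dll4i against control (unadjusted p = 0.0258, edgeR adjusted p = 0.714). Mmp8 and Mmp27 lie within the span of the annotated lncRNA Gm31751, so part of their counts is uncertain.

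Mmp13, Mmp10 and some other members were highest in libraries with high Krt5 and Krt14. The 5 highest Mmp13 values were 233 CPM in control replicate 2, 170 in CAL_Dll4i replicate 4, 167 in CAL_Dll4i replicate 2, 162 in control replicate 4 and 149 in CAL replicate 3. All 5 libraries are among the 6 in which the keratin sum (Krt5, Krt14 and Krt10) stood at 50.9 CPM or more, and the 5 highest Mmp10 values, 12.8 to 19.3 CPM, were in the same 5. The 5 highest Mmp3 values, 468 to 553 CPM, were also in the same 5, with control replicate 3 next at 447 CPM. The other library of the 6, CAL_Dll4i replicate 1, had the highest keratin sum of 325 CPM, with Mmp13 at 91.1 and Mmp10 at 10.8 CPM. In the 6 libraries with keratin sums of 13.7 CPM or less, Mmp13 ran from 42.7 to 85.6 CPM and Mmp10 from 4.17 to 8.39. The 5 highest Mmp9 values, 46.3 to 84.1 CPM, and the 6 highest Adamts7 values, 34.9 to 50.1 CPM, were in libraries with high keratin sums too. Those libraries were unevenly spread: control replicates 2 and 4, CAL replicate 3 alone, and CAL_Dll4i replicates 1, 2 and 4. The source of the keratin RNA, and its part in these levels and in the group means, was not tested.

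**Figure D4:**
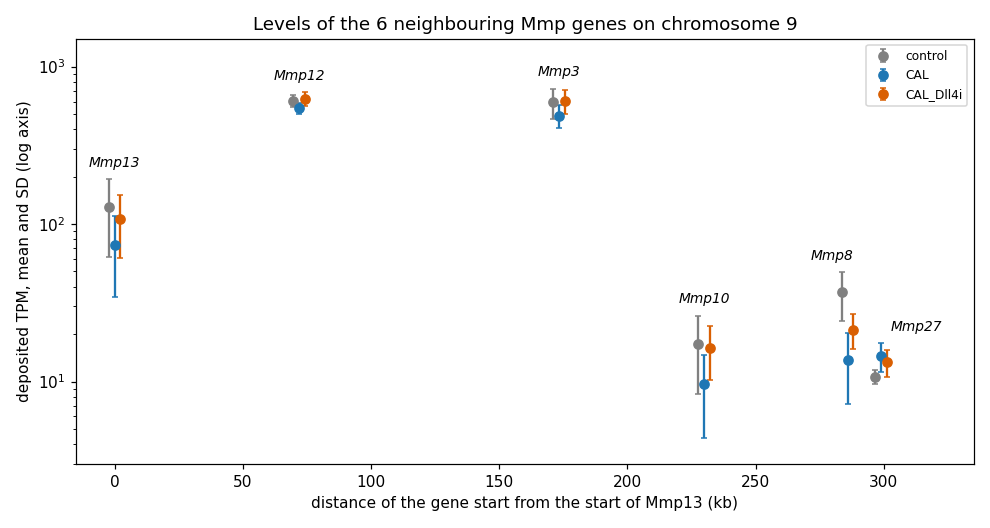
Deposited TPM (log axis, mean and SD of 4 libraries per group) of the 6 neighbouring Mmp genes on chromosome 9 against the distance of each gene start from that of Mmp13 in kb. Mmp12 and Mmp3 stand highest, the CAL mean is the lowest of the 3 groups for every gene except Mmp27, where it is the highest.

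Among the other Mmp genes, Mmp2 stood at 479 ± 52.0, 460 ± 34.2 and 526 ± 55.3 CPM in control, CAL and CAL_Dll4i, Mmp14 at 243 ± 24.1, 214 ± 25.6 and 244 ± 26.4, and Mmp19 at 180 ± 23.5, 166 ± 38.3 and 188 ± 34.0. Mmp11 (21.4 ± 6.86, 22.1 ± 4.68 and 25.1 ± 5.94 CPM), Mmp23 (17.3 ± 3.49, 13.8 ± 1.39 and 15.2 ± 2.56), Mmp15 (2.02 ± 0.377, 2.14 ± 0.511 and 2.12 ± 0.582) and Mmp17 (1.22 ± 0.327, 1.00 ± 0.286 and 1.14 ± 0.338) did not differ at an unadjusted p under 0.05 in any comparison. Across the Mmp family 13 of 17 members had lower estimates in CAL than in control, against 9571 of all 18551 genes. The median log2 fold change of the family was -0.26. Exons of Mmp19 overlap those of Tmem198b over 22.8% of their bases, which leaves some of its counts uncertain.

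Mmp16, a membrane-type enzyme, was a low gene with its highest level in control. It stood at 1.44, 1.04, 1.86 and 0.62 CPM in control replicates 1 to 4, at 0.57, 0.81, 0.47 and 0.93 in CAL and at 0.27, 0.77, 0.65 and 0.60 in CAL_Dll4i. Control replicate 4 overlapped both other groups. The log2 fold changes were -0.83 ± 0.38 in CAL (unadjusted p = 0.0463) and -1.11 ± 0.38 in CAL_Dll4i (unadjusted p = 0.0127, edgeR adjusted p = 0.714), both against the same controls.

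Mmp28, or epilysin, stood at 2.03, 2.09, 3.77 and 1.07 CPM in control replicates 1 to 4, 4.17, 2.41, 2.82 and 5.26 in CAL and 1.99, 3.06, 2.07 and 1.37 in CAL_Dll4i. The groups overlapped, and CAL_Dll4i against CAL gave -0.79 ± 0.37 (unadjusted p = 0.0572, edgeR adjusted p = 0.680). Within CAL the libraries ranked alike by Mmp28 and by the adipocyte marker sum. In control both were highest in replicate 3 and lowest in replicate 4. In CAL_Dll4i both were lowest in replicate 4 but highest in different libraries. The part of adipocyte RNA was not tested. Exons of Mmp28 overlap those of 1700020L24Rik over 12.3% of their bases, which leaves some of its counts uncertain.

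Among the inhibitors, Timp1, an inducible inhibitor of stromal and myeloid cells, had the lowest mean in CAL. It stood at 58.5, 62.3, 81.8 and 70.0 CPM in control replicates 1 to 4 and at 39.5, 58.8, 51.1 and 31.2 in CAL. In CAL_Dll4i it stood at 92.1, 55.4, 51.6 and 53.7 CPM, with replicate 1 far above the rest. In CPM only CAL replicate 2 reached the range of the controls, and in deposited TPM the groups did not overlap, with control at 162 to 226 and CAL at 85.4 to 155. CAL against control gave a log2 fold change of -0.59 ± 0.23 (unadjusted p = 0.0241, edgeR adjusted p = 0.279) and CAL_Dll4i against CAL 0.48 ± 0.23 (adjusted p = 0.680), and CAL_Dll4i against control -0.11 (adjusted p = 0.930).

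Timp2, a broadly expressed inhibitor, stood at 199, 241, 242 and 224 CPM in control replicates 1 to 4, 210, 241, 246 and 241 in CAL and 242, 279, 270 and 186 in CAL_Dll4i. Timp3, which also blocks several ADAM and ADAMTS enzymes, stood at 36.6, 28.9, 54.2 and 36.2 CPM in control, 30.3, 43.0, 36.5 and 37.3 in CAL and 40.7, 33.3, 33.0 and 32.6 in CAL_Dll4i. For both genes the 3 groups overlapped and no comparison reached an unadjusted p under 0.05.

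Timp4, an inhibitor known from adipocytes and muscle, stood at 0.59, 0.48, 3.14 and 0.36 CPM in control replicates 1 to 4. In CAL it stood at 5.54, 2.32, 0.95 and 7.31 CPM and in CAL_Dll4i at 0.59, 2.11, 2.97 and 1.21. Control replicate 3 lay above 2 of the CAL libraries. CAL against control gave 1.81 ± 0.83 (edgeR adjusted p = 0.347), CAL_Dll4i against CAL -1.23 ± 0.81 (0.770) and CAL_Dll4i against control 0.58 (0.895). Adipocyte markers summed highest in the same libraries of their groups, 1923 CPM in control replicate 3, 2848 in CAL replicate 4 and 1915 in CAL_Dll4i replicate 3, and their part in the Timp4 levels was not tested. Timp1, Timp3 and Timp4 lie inside the synapsin genes Syn1, Syn3 and Syn2, and the sources used here do not give whether reads were counted by strand.

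**Figure D5:**
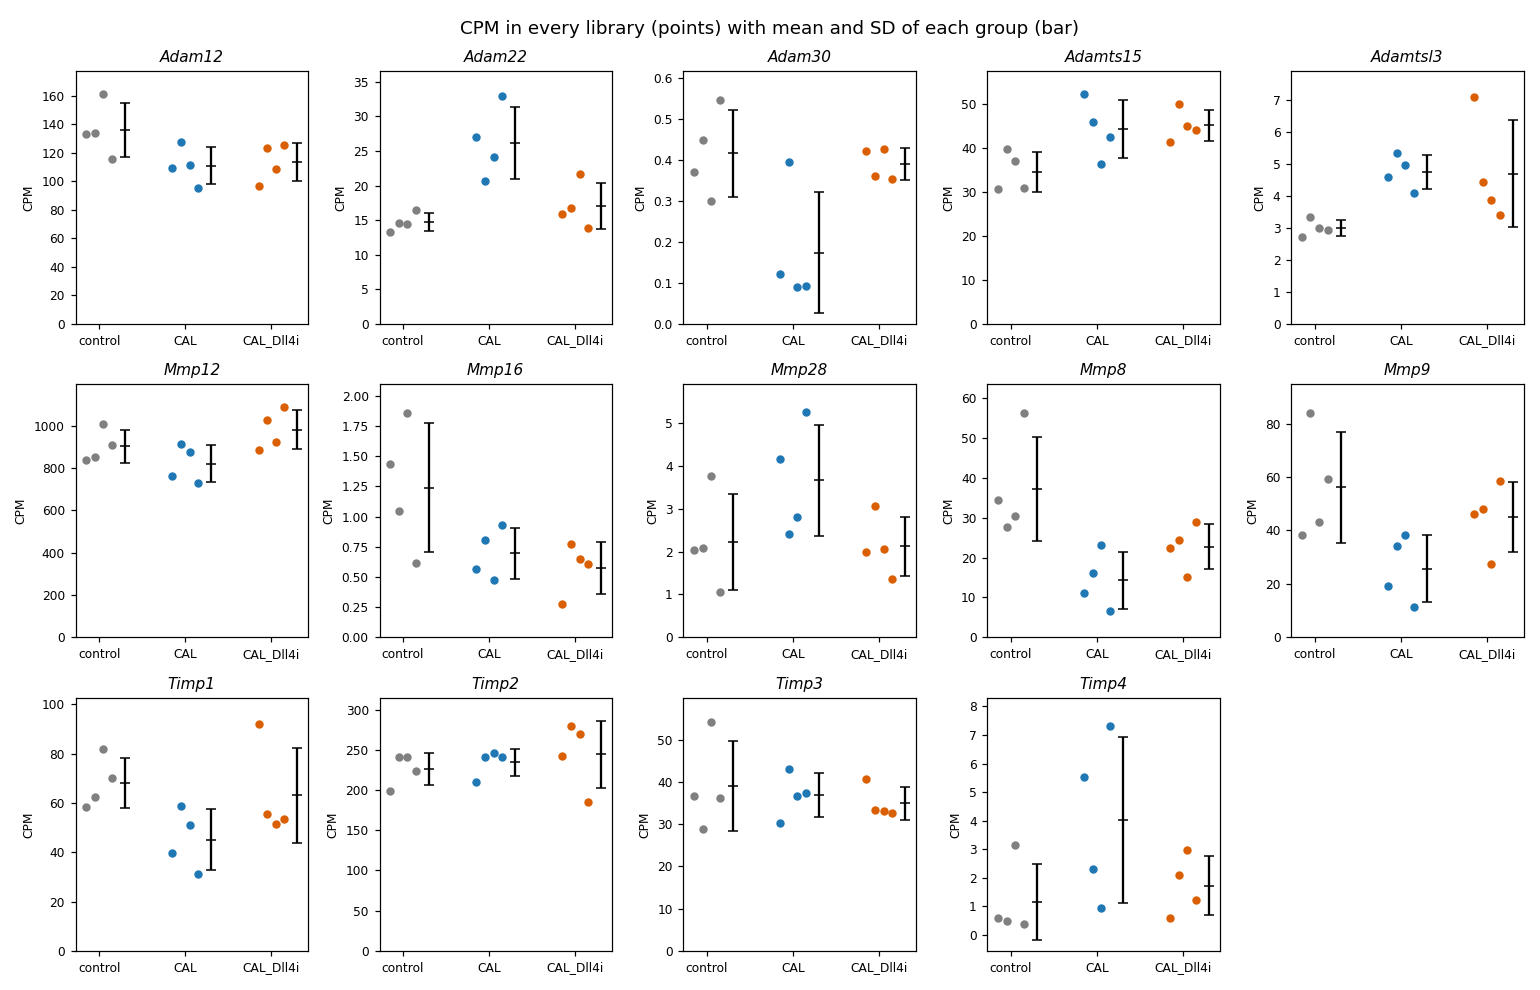
TMM CPM of the members printed library by library, 1 panel a gene, with 4 points, the mean and SD for control, CAL and CAL_Dll4i. Every CAL point of Adam22 lies above every control, every CAL point of Mmp8 below, and every CAL and CAL_Dll4i point of Adamtsl3 above.

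Several abundant Adam genes encode active proteases. Adam8 stood at 571 ± 77.4, 499 ± 76.0 and 599 ± 76.5 CPM in control, CAL and CAL_Dll4i, Adam9 at 377 ± 19.6, 352 ± 23.3 and 384 ± 36.8, and Adam15 at 172 ± 10.7, 172 ± 11.4 and 168 ± 13.1, without an unadjusted p under 0.05 in any comparison. Adam12 (meltrin alpha), known from stromal progenitors, stood at 133, 134, 161 and 116 CPM in control replicates 1 to 4. It stood at 110, 127, 112 and 95.4 CPM in CAL and 96.9, 124, 108 and 126 in CAL_Dll4i, overlapping control in both. Its log2 fold change was -0.29 ± 0.12 in CAL (unadjusted p = 0.0261) and -0.26 ± 0.12 in CAL_Dll4i (unadjusted p = 0.0446) against the same controls. Adam19 (meltrin beta), the relative of Adam12, stood at 75.4 ± 2.52, 88.6 ± 10.9 and 79.3 ± 6.84 CPM, with 0.23 ± 0.08 in CAL against control (unadjusted p = 0.0160). Adam15 and Adam19 overlap annotated antisense genes, which leaves part of their counts uncertain.

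Adam23, like Adam22 an LGI receptor without protease activity, had the opposite direction in CAL. It stood at 239 ± 34.3, 192 ± 21.8 and 227 ± 45.5 CPM in control, CAL and CAL_Dll4i, and every CAL library lay below every control. The log2 fold change was -0.32 ± 0.14 in CAL against control (unadjusted p = 0.0497), with control replicate 3 far above the other controls at 289.7 CPM.

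Some Adam genes are best known from testis and sperm. Adam4, the highest of those named here by TPM, stood at 27.6 ± 3.89, 35.4 ± 2.56 and 31.9 ± 6.99 CPM, with 0.36 ± 0.14 in CAL against control (unadjusted p = 0.0252). Adam1a stood at 11.0 ± 1.65, 14.6 ± 2.32 and 14.3 ± 1.91 CPM, with 0.41 ± 0.14 in CAL (unadjusted p = 0.0138) and 0.38 ± 0.14 in CAL_Dll4i (unadjusted p = 0.0210) against control, and Adam1b at 2.42 ± 0.381, 3.01 ± 0.242 and 2.78 ± 0.133 CPM, with 0.31 ± 0.13 in CAL against control (unadjusted p = 0.0333). These 3 are uncertain by position: 24.0% of the Adam1a exon bases are shared on the same strand with Mapkapk5 and 63.7% with Gm42878, Adam4 lies in the span of Cox16 and Adam1b in that of Tmem116. Adam1a was highest in the libraries with muscle RNA, at 17.0 CPM in CAL replicate 1, 16.7 in CAL_Dll4i replicate 3 and 16.0 in CAL replicate 2. Adam4 was highest in CAL_Dll4i replicate 3, at 42.3 CPM, and CAL replicate 1, at 39.0, but stood at 32.9 in CAL replicate 2. The part of muscle RNA in these levels was not tested. Adam30 stood at 0.37, 0.45, 0.30 and 0.55 CPM in control replicates 1 to 4, 0.12, 0.40, 0.09 and 0.09 in CAL and 0.42, 0.36, 0.43 and 0.35 in CAL_Dll4i. CAL replicate 2 overlapped both other groups, and the log2 fold changes were -1.29 ± 0.42 in CAL against control (unadjusted p = 0.0101) and 1.19 ± 0.42 in CAL_Dll4i against CAL (unadjusted p = 0.0155).

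Of the Adamts proteases, Adamts15, which cuts versican and aggrecan, was higher in both ASC groups. It stood at 30.6, 39.7, 37.1 and 30.9 CPM in control replicates 1 to 4. In CAL it stood at 52.1, 45.9, 36.4 and 42.4 CPM, where replicate 3 overlapped the controls, and in CAL_Dll4i at 41.4, 49.9, 44.9 and 44.0, all above the controls. The log2 fold changes were 0.35 ± 0.12 in CAL (unadjusted p = 0.0104, edgeR adjusted p = 0.218) and 0.38 ± 0.12 in CAL_Dll4i (unadjusted p = 0.00671, edgeR adjusted p = 0.706) against the same controls.

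The more abundant proteoglycan and procollagen enzymes overlapped. Adamts2 stood at 213 ± 35.8, 193 ± 26.0 and 234 ± 26.5 CPM in control, CAL and CAL_Dll4i, Adamts5 at 179 ± 23.4, 193 ± 20.8 and 190 ± 28.0, Adamts12 at 125 ± 28.9, 142 ± 10.4 and 151 ± 23.0, Adamts1 at 77.0 ± 26.1, 59.8 ± 9.37 and 73.4 ± 8.21 and Adamts10 at 45.5 ± 4.88, 50.8 ± 2.61 and 48.2 ± 4.75. Adamts7, which cuts COMP, stood at 34.9 ± 9.98, 27.9 ± 6.41 and 40.9 ± 8.83 CPM, with 0.55 ± 0.23 in CAL_Dll4i against CAL (unadjusted p = 0.0372, edgeR adjusted p = 0.664). Adamts7 ran from 34.9 to 50.1 CPM in the libraries with high Krt5 and Krt14 and from 19.4 to 29.8 in the others. The part of keratin RNA in this difference was not tested. Adamts16 stood at 4.19 ± 2.23, 1.82 ± 0.968 and 2.70 ± 1.27 CPM, with -1.20 ± 0.55 in CAL against control (unadjusted p = 0.0499).

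Adamtsl3, a matrix protein without a protease domain, stood above every control in both ASC groups in CPM. It stood at 2.70, 3.32, 2.99 and 2.93 CPM in control replicates 1 to 4, 4.60, 5.32, 4.96 and 4.08 in CAL and 7.09, 4.43, 3.86 and 3.39 in CAL_Dll4i. The log2 fold changes were 0.67 ± 0.20 in CAL (unadjusted p = 0.00674, edgeR adjusted p = 0.205) and 0.65 ± 0.20 in CAL_Dll4i (unadjusted p = 0.00764, edgeR adjusted p = 0.706). In deposited TPM CAL_Dll4i replicate 4 of Adamtsl3, at 1.03, lay below control replicate 2, at 1.10. Adamtsl1 at 30.3 ± 8.85, 32.4 ± 5.74 and 30.3 ± 3.97 CPM, Adamtsl5 at 19.1 ± 2.57, 17.8 ± 2.94 and 21.0 ± 2.37, Adamtsl4 at 8.37 ± 2.24, 9.22 ± 2.63 and 8.76 ± 0.445 and Adamtsl2 at 1.53 ± 1.10, 1.55 ± 0.387 and 1.34 ± 0.368 overlapped between groups.

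The remaining 15 members are Adam and Adamts genes with mean levels of 0.151 to 11.4 TPM, from Adamts18 to Adam33. None reached an unadjusted p under 0.05, the smallest being 0.0680 in CAL against control, 0.271 in CAL_Dll4i against CAL and 0.0984 in CAL_Dll4i against control. They include Adamts4, an aggrecanase, at 13.8 ± 4.87, 8.60 ± 4.14 and 11.3 ± 1.42 CPM, Adamts9 at 35.9 ± 12.8, 34.4 ± 5.49 and 33.8 ± 5.23, and Adamts13, which cuts von Willebrand factor, at 0.327 ± 0.137, 0.335 ± 0.0626 and 0.238 ± 0.157 CPM in control, CAL and CAL_Dll4i.

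The effect of Dll4 inhibition in grafts with ASC is the comparison of CAL_Dll4i with CAL. None of the 3 tools called a member, where edgeR called 0%, DESeq2 0.0054% and voom 0% of all genes. At an unadjusted p under 0.05, 4 of 62 members differed (6.45%), against 7.42% of all genes. Mmp12, Adam30 and Adamts7 were higher (4.47% of all genes) and Adam22 lower (2.95%). The groups overlapped for all 62 members, while 1.58% of all genes lay wholly higher and 1.76% wholly lower, 3.34% together. Estimates were higher in CAL_Dll4i for 36 members, against 9510 of all 18551 genes, with a median of 0.07 against 0.00 over all genes. Among the 36 were 12 of 17 Mmp (family median 0.19) and 12 of 17 Adamts (family median 0.11). Leaving out CAL_Dll4i replicate 3 gave 14 members at an unadjusted p under 0.05, leaving out CAL replicate 3 gave 12 and CAL replicate 2 gave 9. Shares over all genes in these settings are not given here, so the counts do not show whether members moved more than other genes. Leaving out the 6 libraries with high Krt5 and Krt14 leaves 1 CAL_Dll4i library, and no count is given for it.

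Mmp12, the most abundant member, had the smallest p among higher members in that comparison. It stood at 838, 852, 1009 and 910 CPM in control replicates 1 to 4, at 765, 912, 874 and 730 in CAL and at 885, 1025, 925 and 1090 in CAL_Dll4i. CAL replicate 2 overlapped the lowest CAL_Dll4i library. The log2 fold change was 0.26 ± 0.09 (unadjusted p = 0.0149, edgeR adjusted p = 0.659). Macrophage marker sums of 5153 to 6037 CPM in CAL and 5372 to 6287 in CAL_Dll4i overlapped, and their part in the Mmp12 level was not tested. For Mmp8 and Mmp9 the same comparison gave 0.68 ± 0.37 (adjusted p = 0.711) and 0.81 ± 0.39 (adjusted p = 0.687).

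CAL_Dll4i against control compares the combined treatment with the plain graft. Again none of the 3 tools called a member, where edgeR called 0%, DESeq2 0.35% and voom 0% of all genes. At an unadjusted p under 0.05, 6 of 62 members differed (9.68%), against 6.92% of all genes. Adamts15, Adamtsl3, Adam1a and Mmp27 were higher (3.86% of all genes) and Mmp16 and Adam12 lower (3.06%). The groups did not overlap for 3 members (4.84%), against 4.77% of all genes, with Adamts15 and Adamtsl3 higher (2.41% of all genes) and Adam5 lower (2.35%). This comparison shares its control libraries with CAL against control. Mmp8 stood at -0.71 ± 0.36 (adjusted p = 0.716) and Mmp9 at -0.32 (adjusted p = 0.877). Without control replicate 3 the count at an unadjusted p under 0.05 was 10, and the share over all genes in that setting is not given here.

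Regulators of these proteases were followed with a list of 33 genes for plasminogen activators and their serpins, cathepsins, proenzyme activators and membrane inhibitors, of which 30 were tested and Plg, Spock1 and Spock3 were not analysed here. In CAL against control 22 of 30 had lower estimates, as did 9571 of all 18551 genes. At an unadjusted p under 0.05, 6 of 30 were lower (7.57% of all genes), with none higher (7.01%). The 6 were Furin, which activates membrane-type Mmp and Adam proenzymes, Plaur, Plat, Serpine2, Bmp1 and Thbs1. Serpine2, an inhibitor of plasminogen activators and thrombin, stood at 125 ± 37.7 and 64.3 ± 14.2 CPM, a log2 fold change of -0.95 ± 0.26, and was the 1 regulator DESeq2 called (adjusted p = 0.00965, where it called 3.61% of all genes). Thbs1, thrombospondin, stood at 318 ± 133 and 131 ± 71.6 CPM. edgeR called none in any comparison.

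In CAL_Dll4i against CAL, 25 of 30 regulators had higher estimates, as did 9510 of all 18551 genes. At an unadjusted p under 0.05, 8 of 30 were higher (4.47% of all genes), with none lower (2.95%). The 8 were Serpine2, Serpinb2, the cathepsins Ctsk, Ctsb and Ctsl, Bmp1, Thbs1 and Thbs2. Of these, Serpinb2 was low and uneven, at 2.86 ± 4.01 CPM in CAL_Dll4i and 0.572 ± 0.281 in CAL, and DESeq2 gave it no adjusted p. In CAL_Dll4i against control the 1 gene was Ctsb, which was higher (3.86% of all genes were). The first comparison shares the CAL libraries with CAL against control, so opposite signs arise in part from that.

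Of 16 matrix substrates 14 were tested, and Acan and Bcan were not analysed here. Fn1, Vcan, Bgn and Comp were lower in CAL than in control at an unadjusted p under 0.05, 4 of 14 against 7.57% of all genes. DESeq2 called Vcan and Fn1 (adjusted p = 0.0014 and 0.0364), where it called 3.61% of all genes. Vcan, versican, a substrate of Adamts1, Adamts5 and Adamts15, had 420 ± 101 CPM in control against 206 ± 58.2 in CAL, a log2 fold change of -1.03 ± 0.24. In CAL_Dll4i against CAL, 11 of 14 substrates had higher estimates, as did 9510 of all 18551 genes. Of these, Col3a1, Col4a1, Col4a2, Vcan and Bgn were higher at an unadjusted p under 0.05 (5 of 14, against 4.47% of all genes). In CAL_Dll4i against control Col1a1, Col4a2, Dcn and Vwf were higher and Comp lower at that level, where 3.86% of all genes were higher and 3.06% lower. edgeR called none of these genes.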

How the data were processed

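RNA of 12 adipose graft libraries was extracted with Trizol and prepared with a SureSelectXT RNA Direct kit, which enriches exons by capture, per the labels' protocols. The submitters' processing notes name HISAT2, StringTie and the build mm10, without versions. The authors deposited estimated counts, which are whole, and every gene in the table has at least 1 in each library. The deposited TPM values, scaled by the authors for length and library size, were used for levels between genes. The deposited FPKM values were not used for results. Counts per library limit precision only for the lowest members.

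The counts were fitted with edgeR 4.0.16 in R 4.3.3 (TMM, filterByExpr at its defaults, robust quasi-likelihood fit, 1 coefficient per group, all 12 libraries), and p-values were Benjamini-Hochberg adjusted over all 18551 genes tested. The biological coefficient of variation was 0.237. CPM are TMM-normalised. The code was tested on simulated counts. As alternatives, DESeq2 1.42.0, voom with sample weights in limma 3.58.1, scaling by RLE or upper quartile, no filter or one of 1 CPM in at least 4 libraries, a replicate block, only the 2 groups compared, and each library left out were run. Leaving out the 3 libraries with Acta1 above 10 CPM, or the 6 with Krt5, Krt14 and Krt10 together above 25 CPM, was chosen after seeing the data.

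The members and gene lists were chosen with earlier results of these data known. Named are all Mmp and Timp genes, the 5 highest by TPM in each other family, and any member at an unadjusted p under 0.05 or called by any tool, 47 in all. Every library is given for the 13 that a tool called, that are Timp genes, or that had 1 of the 2 smallest p per direction and comparison. Positions and promoters come from RefSeq tables of GRCm38.p6, the assembly of mm10, and exon overlaps from GENCODE. All 62 members had a position, and 40 a promoter entry. Protein sequences were not used here. Genes that overlap others or have near-identical copies, such as Adam6b, have uncertain counts. Plots used matplotlib 3.10.9 in Python 3.11.15.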

Additional observations from a re-analysis of the deposited data

Results flagged for a closer look

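In 8 of 141 sets of 4 libraries (each named member in each group) the highest or lowest library lay far from the other 3, and chance alone marks about 1 set in 20. Adam23 stood at 289.7 CPM in control replicate 3, against 216.5 to 226.8 in the other controls. Timp4 stood at 3.14 CPM in control replicate 3, against 0.365 to 0.591. Adam30 stood at 0.395 CPM in CAL replicate 2, against 0.0886 to 0.120, and Mmp27 at 16.6 CPM in CAL replicate 4, against 11.4 to 11.7. Timp2 was low in CAL replicate 1, at 209.5 CPM against 241.2 to 245.7. In CAL_Dll4i replicate 1 Timp1 stood at 92.1 CPM, against 51.6 to 55.4, and Timp3 at 40.7, against 32.6 to 33.3. Adam4 stood at 42.3 CPM in CAL_Dll4i replicate 3, against 27.2 to 29.4 in the rest of that group.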

How the results depend on the processing

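All 37 log2 fold changes followed across up to 18 settings kept their sign wherever they could be computed. Adam30 and Mmp16 are among the members lost under the filter at 1 CPM. The number of members called in CAL against control was 0 by edgeR in every setting, 2 by DESeq2 and 1 by voom with sample weights, and it was 0 in both other comparisons. At an unadjusted p under 0.05, CAL against control gave 16 members, 8 without the 3 libraries with muscle RNA and 8 to 22 with each library left out in turn (8 without CAL replicate 1). CAL_Dll4i against CAL gave 4, 10 by DESeq2, 14 by voom with sample weights, 9 with only the 2 groups compared, 8 without the muscle libraries and 3 to 14 with each library left out. Without the 6 libraries with high Krt5 and Krt14, 1 CAL_Dll4i library was left, assumed to vary like the other groups, and no count is given. CAL_Dll4i against control gave 6, 11 by voom with sample weights and 4 to 10 with each library left out (10 without control replicate 3). Members without overlap numbered 7, 0 and 3 in the comparisons in that order. Without the muscle libraries the first 2 counts were 13 and 19, and with each library left out they ran from 7 to 15, 0 to 10 and 3 to 7. Fewer libraries make non-overlap more frequent by construction, and for the remaining counts that moved the cause was not tested. Outside the main setting, shares over all genes are not given here, so these counts do not show whether members moved more than other genes.

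Replicate numbers showed no clear pairing of the samples: deviations of same-numbered libraries correlated at -0.399 to 0.181. The 0.181 was replicate 1 in CAL against control, where the largest correlation with another number was 0.169. Deviations from means of only 4 libraries cannot tell whether libraries share an animal or a batch. With the replicate block, members at an unadjusted p under 0.05 numbered 15, 7 and 6 in the same order of comparisons, and 0 were called.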
